A study of Mus musculus with 2 samples.

Results

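The collagen genes encode the chains of the collagen superfamily, and 44 of them, named by symbol, were followed through the gene and transcript tables of the newborn mouse intestine. All 44 matched a row of the deposited tables by gene identifier, out of 43346 Ensembl genes and 21461 nuclear protein-coding genes. Total RNA longer than 200 nt was sequenced from the whole-tissue intestine of 2 B6NCrl pups of age 0 days. The pups, called pup 1 and pup 2 after their labels, were littermates born to 1 dam, and each gave 1 library from 10 ng of RNA with spike-in transcripts added. The pups carried no allele or treatment that the labels record, their sex was not collected, and the labels do not say which segment was taken. Both pups form 1 group. The design therefore describes the newborn tissue and the spread between siblings. No test was run, because the smallest p that exact sign flips of 2 values can reach is 0.5.

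A collagen molecule is a rope of 3 chains wound into a triple helix, which needs a glycine at the start of each triplet of residues. Fibrillar collagens pack side by side into the fibrils that give the gut wall its tensile strength, and the network-forming type IV chains build the sheet of basement membrane under the epithelium, around vessels and around smooth muscle cells. Beaded type VI collagen forms thin filaments close to cells. FACIT chains (fibril-associated collagens with interrupted triple helices) sit on fibril surfaces, multiplexins carry sugar chains and lie in or beside basement membranes, and transmembrane collagens are anchored in the plasma membrane. Mesenchymal cells make most of these proteins in the intestine, while endothelial, muscle and epithelial cells contribute basement membrane chains.

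The repeat that defines the family is visible in the coding sequence, so 1 early coding exon of 4 fibrillar chains (types III, I and V) is shown first, with every in-frame glycine codon (GGN) in capitals. Each is 54 bases long and holds 6 successive triplets of a glycine codon and 2 further codons. Sequences and positions are those of GENCODE M21 on GRCm38, read 5′ to 3′ on the coding strand.
Col3a1 exon 6, chr1:45325360-45325413, plus strand: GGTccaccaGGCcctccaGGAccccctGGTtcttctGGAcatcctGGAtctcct
Col1a1 exon 8, chr11:94939904-94939957, plus strand: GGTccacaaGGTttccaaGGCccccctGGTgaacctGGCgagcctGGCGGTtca
Col1a2 exon 8, chr6:4515481-4515534, plus strand: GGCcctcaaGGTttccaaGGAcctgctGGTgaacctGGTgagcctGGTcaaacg
Col5a2 exon 6, chr1:45434892-45434945, minus strand: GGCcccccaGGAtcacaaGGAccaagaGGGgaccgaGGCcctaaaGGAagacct

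All 44 collagen genes had a run of at least 10 such triplets in their longest coding sequence, against 49 of 21417 other protein-coding genes (0.229%), among which the scavenger receptor gene Marco had the longest at 81 triplets. The run lengths separated the fibrillar class from the others. The 11 fibrillar chains ran for 216 to 344 triplets without a break, with Col3a1 at 344, Col1a2 at 339, Col1a1 at 338, Col27a1 at 217 and Col24a1 at 216. The 6 type IV chains had longest runs of only 39 to 66 triplets, spread over 23 to 27 separate runs. Whole coding exons of exactly 54 bases made up 48.6% of those in fibrillar genes, 4.23% in type IV genes and 0.447% in all other protein-coding genes. The interruptions of type IV chains are seen in the 54 coding bases over the first break after 5 or more triplets, again with in-frame glycine codons in capitals. The Col4a1 stretch is joined across an intron, so that its ends lie 542 bases apart in the genome.
Col4a1, chr8:11244525-11245066, minus strand: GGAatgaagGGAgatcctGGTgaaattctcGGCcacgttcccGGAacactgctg
Col4a2, chr8:11402172-11402225, plus strand: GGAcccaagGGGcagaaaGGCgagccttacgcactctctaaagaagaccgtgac

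Depth was 44568095 expected counts (estimated reads per gene) in pup 1 and 34797451 in pup 2. Levels are given in TPM, the length-normalised transcript abundance that the authors deposited. The tissue label was checked against marker genes. All 6 intestinal epithelium markers, led by Fabp2, Lgals4 and Epcam, and all 6 smooth muscle markers, led by Actg2, Acta2 and Tagln, reached at least 1 TPM in each pup, as did 6 of 6 fibroblast markers (Dcn, Lum, Dpt highest), 5 of 5 endothelial ones (Plvap, Pecam1, Cdh5), 4 of 4 enteric neuron ones (Uchl1, Stmn2, Elavl4) and 3 of 3 mesothelial ones (Msln, Upk3b, Lrrn4). Markers of other tissues with collagens of their own were lower: 0 of 5 bone markers (Dmp1, Bglap, Sp7 highest), 2 of 8 cartilage markers (Sox9 and Chad, then Cnmd) and 2 of 5 keratinocyte markers (Krt14 and Krt10, then Krt1) passed 1 TPM. Skeletal muscle markers passed in 3 of 5 cases (Ckm, Mylpf, Acta1) and exocrine pancreas ones in 4 of 4 (Ctrb1, Cela2a, Prss1).

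Of the 44 collagen genes, 26 (59.1%) reached at least 1 TPM in each pup, the level called detected here. The share among all nuclear protein-coding genes was the same at this rounding, 12678 of 21461 (59.1%). Levels covered a wide range, with 16 of the 44 genes over 10 TPM and 6 over 50 TPM in both pups. Many other genes reached these levels too. By mean TPM among the 21461 nuclear protein-coding genes, the lowest of the 16, Col15a1, ranked 6954. The lowest of the 6, Col4a1, ranked 1947. Col5a3 and Col9a3 passed 1 TPM in 1 pup only, and Col2a1 alone stayed under 0.1 TPM in both. Summed over the family, collagen transcripts took 1401 TPM in pup 1 and 1451 TPM in pup 2, or 0.143% ± 0.0035 of all TPM (SD, n = 2) and 0.556% ± 0.011 of the gene counts. In bulk tissue, fewer cells of a type and less RNA per cell cannot be told apart, so these values describe the intestine as dissected.

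**Figure D1:**
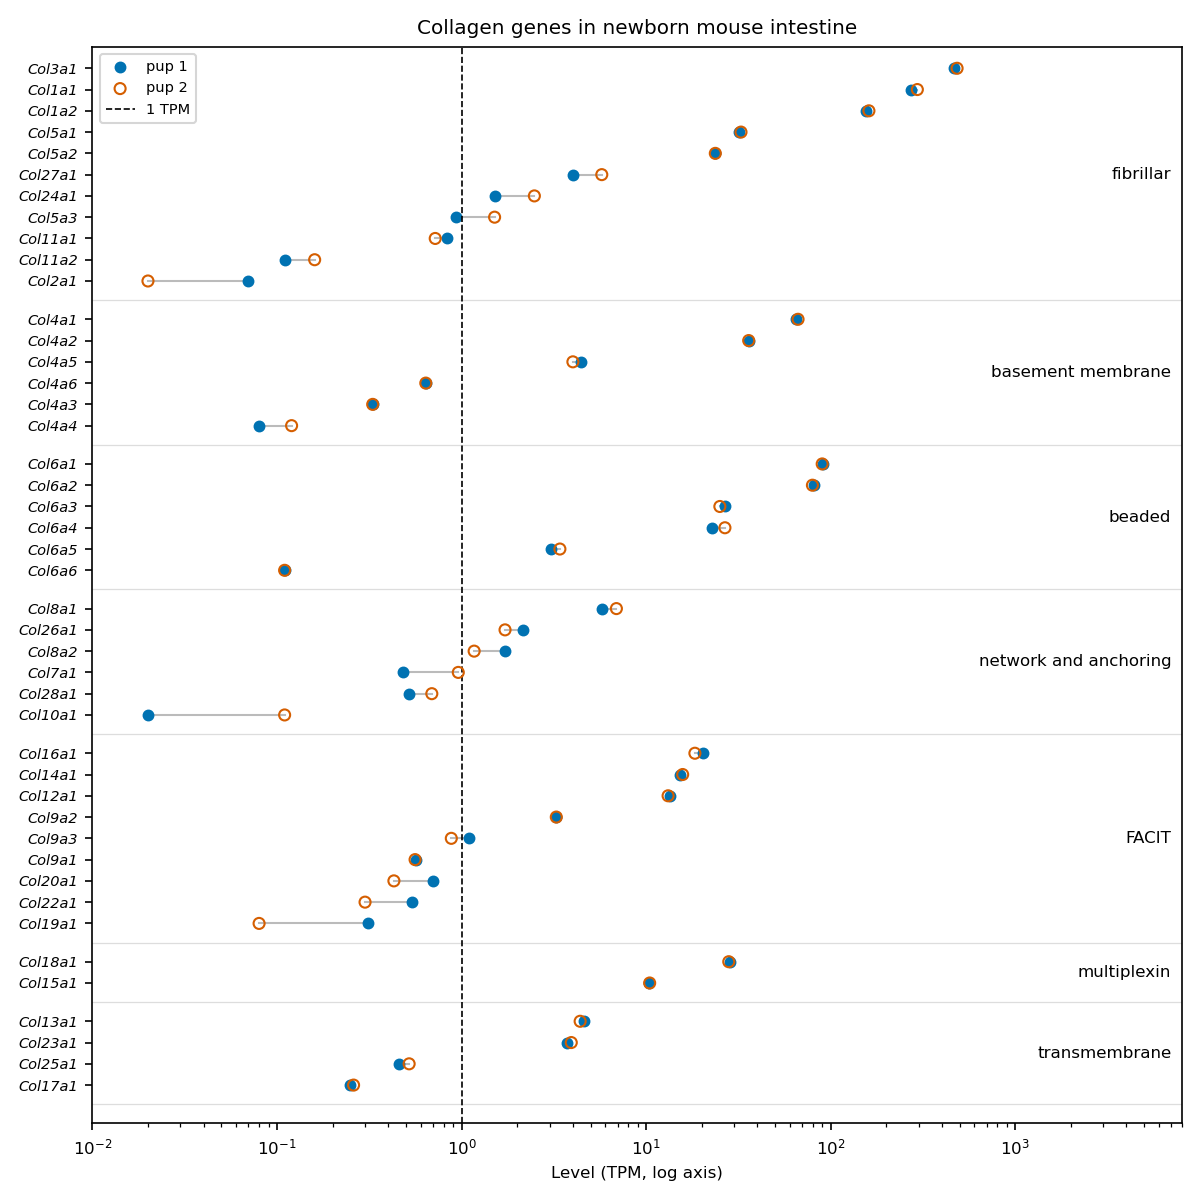
Level of each of the 44 collagen genes in TPM (log axis), with pup 1 as filled and pup 2 as open circles, grouped by class and ordered by mean level; the dashed line marks 1 TPM. Col3a1, Col1a1 and Col1a2 lie farthest to the right, and the 2 pups lie close together for every gene over 10 TPM.

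Fibrillar chains held most of the collagen signal. Their share of the summed collagen TPM was 68.3% in pup 1 and 69.4% in pup 2, a mean of 68.8% ± 0.79 (SD, n = 2). Beaded chains followed with 15.8% ± 0.36, basement membrane chains with 7.50% ± 0.13, FACIT chains with 3.80% ± 0.23 and multiplexins with 2.71% ± 0.083. The network and anchoring group (0.779% ± 0.025) and the transmembrane chains (0.637% ± 0.013) were the smallest. Col3a1, Col1a1 and Col1a2 together took 63.7% and 64.8% in the 2 pups, while the members under 1 TPM in at least 1 pup took 0.577% ± 0.0033 in all. Counted in reads, which favour long transcripts, the basement membrane share was 9.80% and the beaded share 12.7%, with the fibrillar share at 71.2%.

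**Figure D2:**
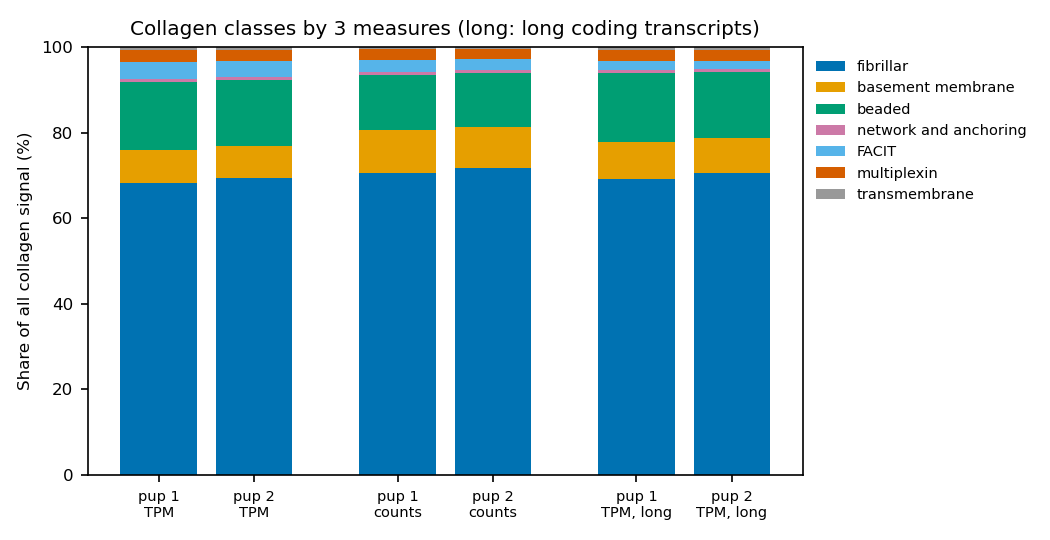
Share (%) of the summed collagen signal held by each of 7 classes in each pup, measured in TPM, in expected counts, and in TPM of long coding transcripts only. The fibrillar class holds 68.3% to 71.7% in every bar, and the order of the 3 leading classes (fibrillar, beaded, basement membrane) is the same in all 6 bars.

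Among the fibrillar genes, Col3a1 (ENSMUSG00000026043.14, chr1:45311538-45349706), the homotrimeric type III chain of distensible tissues, was the highest collagen, at 467 TPM in pup 1 and 484 TPM in pup 2. Col1a1 (ENSMUSG00000001506.10, chr11:94936224-94953042), the α1 chain of type I collagen, stood at 271 and 295 TPM. Its partner Col1a2 (ENSMUSG00000029661.12, chr6:4504814-4541544) was at 155 and 161 TPM. Among nuclear protein-coding genes ranked by TPM, Col3a1 stood at percentile 98.8, Col1a1 at 97.8 and Col1a2 at 96.2. The order Col3a1, Col1a1, Col1a2 held in both pups without overlap. Type V collagen, which nucleates and thins type I fibrils, was led by Col5a1 (32.0 and 32.7 TPM) and Col5a2 (23.7 and 23.7 TPM). The third type V chain, Col5a3, was much lower, at 0.93 and 1.51 TPM.

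Of the remaining fibrillar genes, Col27a1 (4.01 and 5.75 TPM) and Col24a1 (1.52 and 2.48 TPM), both of the subgroup with a shorter helix, were detected, with the higher value in pup 2. For Col24a1 this rested on the retained-intron transcript Col24a1-204 (1.06 and 2.00 TPM), since its long coding transcripts were at 0.46 and 0.48 TPM. Chains of cartilage fibrils were low. Col11a1 was at 0.83 and 0.72 TPM, Col11a2 at 0.11 and 0.16 TPM, and Col2a1, the main chain of cartilage, at 0.07 and 0.02 TPM, from 4 and 2 reads. Of the 8 cartilage markers set beside them, 5 were under 0.1 TPM in both pups. Snorc had no read, and Acan was at 0.01 TPM in each pup. The list's sum of 14.5 to 16.2 TPM was mostly Sox9 (12.8 and 13.3 TPM), which intestinal epithelial cells also express.

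The basement membrane chains were dominated by the ubiquitous α1 and α2 chains of type IV collagen. Col4a1 (ENSMUSG00000031502.9, chr8:11198423-11312826) was at 65.1 and 66.5 TPM and Col4a2 (ENSMUSG00000031503.9, chr8:11312805-11449287) at 35.9 and 35.9 TPM. Both pups gave nearly the same value for each gene, and the levels of the 2 genes did not overlap. The X-linked Col4a5, which joins α6 in smooth muscle basement membranes and α3 and α4 in kidney, was at 4.42 and 4.01 TPM, and its neighbour Col4a6 at 0.64 and 0.64 TPM. Col4a3 (0.33 and 0.33 TPM) and Col4a4 (0.08 and 0.12 TPM), the chains of the glomerular membrane, were the lowest. Col4a3 overlaps 563 exonic bases of the opposite-strand gene C430014B12Rik, which was at 1.45 and 1.35 TPM, and no source used here says whether counting used strand.

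The 6 type IV genes lie in 3 head-to-head pairs. The annotated starts of Col4a1 and Col4a2 are 21 bases apart and the gene bodies overlap by 22 bases. Those of Col4a3 and Col4a4 are 72 bases apart, and those of Col4a5 and Col4a6 are 1309 bases apart. In each pair 1 gene stood above the other in both pups, by 1.83-fold for Col4a1 over Col4a2, 2.16-fold for Col4a3 over Col4a4 and 5.82-fold for Col4a5 over Col4a6 (TPM with 0.1 added). The sizes of the last 2 depended on the measure: by long coding transcripts Col4a5 was 1.70-fold over Col4a6, and Col4a3 was 1.21-fold over Col4a4 with 1 TPM added and 3.03-fold by expected counts. The 30 bases around the Col4a1 and Col4a2 starts are shown because these 2 abundant transcripts share a short stretch at their 5′ ends, on opposite strands; capitals run from one start to the other, on the strand of Col4a2 (RefSeq promoter table, GRCm38.p6).
Col4a1 and Col4a2 starts, chr8:11312801-11312830, plus strand: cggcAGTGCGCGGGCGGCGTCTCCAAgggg

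Beaded type VI collagen had 5 of 6 genes detected. Col6a1 (chr10:76708792-76726168) was at 91.0 and 89.9 TPM and Col6a2 (chr10:76595762-76623630) at 81.1 and 79.6 TPM. These 2 short chains assemble with a long chain into the type VI monomer. The main long chain Col6a3 was at 26.6 and 25.1 TPM. Col6a4, an alternative long chain, reached 22.6 and 26.7 TPM, which overlapped Col6a3 between pups. Col6a5 was at 3.05 and 3.41 TPM and Col6a6, the last of the alternative long chains, at 0.11 and 0.11 TPM. Much of the Col6a3 and Col6a4 signal lay in short transcripts, as given with the isoforms.

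Of 9 FACIT genes, 4 were detected: Col16a1, Col14a1, Col12a1 and Col9a2. Col16a1 was at 20.3 and 18.4 TPM, Col14a1, which limits fibril growth, at 15.2 and 15.8 TPM, and Col12a1, a fibril-bridging chain, at 13.6 and 13.2 TPM. Their ranges did not overlap in TPM, but their order depended on the measure. By long coding transcripts Col14a1 (8.63 and 9.19 TPM) was above Col16a1 (7.85 and 7.13 TPM), with Col12a1 at 2.48 and 2.61 TPM, and by expected counts Col14a1 (2441 and 1968) was also above Col16a1 (1837 and 1264). The type IX chains, best known on cartilage fibrils, were unequal: Col9a2 was at 3.23 and 3.26 TPM, Col9a3 at 1.10 and 0.88 TPM and Col9a1 at 0.57 and 0.56 TPM. The remaining FACIT genes Col20a1 (0.70 and 0.43 TPM), Col22a1 (0.54 and 0.30 TPM), a chain of muscle-tendon junctions, and Col19a1 (0.31 and 0.08 TPM), with a known role in oesophageal muscle, were under 1 TPM in both pups.

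In the network and anchoring group, Col8a1, a short-chain collagen of vessel walls and mesenchyme, was highest at 5.77 and 6.90 TPM, and its partner Col8a2 was at 1.73 and 1.17 TPM. Col26a1, placed here for want of a nearer class, was at 2.15 and 1.72 TPM. Col7a1, the anchoring fibril chain of skin and other stratified epithelia, was at 0.48 and 0.96 TPM, Col28a1 at 0.52 and 0.69 TPM and Col10a1, the chain of hypertrophic cartilage, at 0.02 and 0.11 TPM. The transmembrane collagens Col13a1 (4.62 and 4.39 TPM), found at muscle and other adhesion sites, and Col23a1 (3.72 and 3.93 TPM) were detected. Col25a1, a neuronal and muscle chain, was at 0.46 and 0.52 TPM, and Col17a1, the hemidesmosome collagen of keratinocytes, at 0.25 and 0.26 TPM. Keratinocyte markers beside Col7a1 and Col17a1 summed to 12.2 and 11.2 TPM, with Dsg3 at 0 and Krt5 under 0.1 TPM in both pups. Most of that sum was Krt14 (8.13 and 7.26 TPM) and Krt10 (3.82 and 3.66 TPM), and the part of such cells in the 2 collagens was not tested.

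Both multiplexins were detected. Col18a1 (chr10:77052178-77166548), whose C-terminal fragment is endostatin, was at 28.4 and 28.0 TPM, and Col15a1, its relative at the outer face of muscle and vessel basement membranes, at 10.39 and 10.45 TPM. Col18a1 has 2 promoters, and nearly all of its signal belonged to the transcript that starts upstream, Col18a1-202, with 98.6% of the gene's TPM in pup 1 and 98.0% in pup 2. The RefSeq downstream start lies at position 77113705 of the same chromosome. The 250 bases before the upstream start are shown because this promoter is the one the transcript values point to; capitals mark CCAAT and GGGCGG on either strand. They hold the GC box GGGCGG in reverse orientation 3 times, beginning 61, 43 and 33 bases before the start, and CCAAT in reverse 210 bases before it. The downstream window held none of the 3 motifs searched.
Col18a1 upstream promoter, chr10:77166531-77166780, minus strand: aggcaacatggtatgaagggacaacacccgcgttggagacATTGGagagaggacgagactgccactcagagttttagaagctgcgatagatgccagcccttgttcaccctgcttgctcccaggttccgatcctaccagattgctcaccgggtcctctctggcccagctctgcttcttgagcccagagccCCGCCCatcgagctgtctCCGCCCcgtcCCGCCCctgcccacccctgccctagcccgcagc

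Chains of one molecule were compared as log2 ratios of TPM with 0.1 added, computed in each pup. The Col1a1 to Col1a2 ratio was 0.81 in pup 1 and 0.87 in pup 2, a mean of 0.84 ± 0.045 (SD, n = 2), or 1.79-fold. The Col4a1 to Col4a2 ratio was 0.86 and 0.89, a mean of 0.87 ± 0.021. Col5a1 exceeded Col5a2 by 0.45 ± 0.021, or 1.36-fold. Col6a1 and Col6a2 were closest to parity, at 0.17 ± 0.0072, or 1.13-fold. Each of these 4 differences had the same sign in both pups and was larger than its SD.

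Other ratios set the rarer chains against the main ones. Type V was well below type I, with Col5a1 at -3.12 ± 0.064 relative to Col1a1, and Col3a1 was above Col1a1 by 0.75 ± 0.050. Col5a3 was -4.65 ± 0.43 relative to Col5a1, and Col11a1 was -5.21 ± 0.15 relative to the same gene. For the cartilage pairs, Col11a1 to Col2a1 was 2.61 ± 0.23 and Col11a2 to Col11a1 -1.90 ± 0.35. These values rest on few reads, and their size depended on the measure by more than the SD. Col11a1 to Col2a1 was 0.76 with 1 TPM added, 0.71 by posterior mean TPM and 5.64 by expected counts. Col11a2 to Col11a1 was -0.64, -0.74 and -2.69 by the same measures. Col4a5 was -3.93 ± 0.12 relative to Col4a1. Col8a1 exceeded Col8a2 by 1.68 in pup 1 and 2.46 in pup 2, the pair that differed most between pups. Col9a1 and Col9a3 lay below Col9a2 by values of -2.33 ± 0.024 and -1.63 ± 0.22, Col18a1 above Col15a1 by 1.43 ± 0.020, and Col12a1 to Col14a1 was -0.21 ± 0.066.

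Ratios of the long type VI chains depended on which transcripts were counted. Over whole genes, Col6a3 was -1.80 ± 0.047 relative to Col6a1, or 3.49-fold lower. Over long coding transcripts alone, defined as those with at least 70% of the gene's longest coding sequence, it was -3.17 ± 0.076, or 9.03-fold lower. Col6a4 to Col6a3 was -0.23 in pup 1 and 0.09 in pup 2 over whole genes, so its sign differed between pups, and -0.31 ± 0.033 over long coding transcripts. Col6a5 relative to Col6a3 went from -2.96 ± 0.17 to -1.79 ± 0.018 and Col6a6 from -6.95 ± 0.059 to -5.58 ± 0.063. Col4a5 over Col4a6 shrank from 2.54 ± 0.097 to 0.76 ± 0.054, and Col4a5 relative to Col4a1 went to -5.73 ± 0.10. Col12a1 to Col14a1 went to -1.77 ± 0.013, and Col18a1 over Col15a1 grew to 2.86 ± 0.091. Col3a1 over Col1a1 shrank from 0.75 ± 0.050 to 0.34 ± 0.026, and was 0.30 ± 0.029 by expected counts. In contrast Col1a1 to Col1a2 (0.87 ± 0.051), Col4a1 to Col4a2 (0.88 ± 0.014), Col5a1 to Col5a2 (0.46 ± 0.038) and Col6a1 to Col6a2 (0.17 ± 0.0064) stayed within 1 SD of their whole-gene values.

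**Figure D3:**
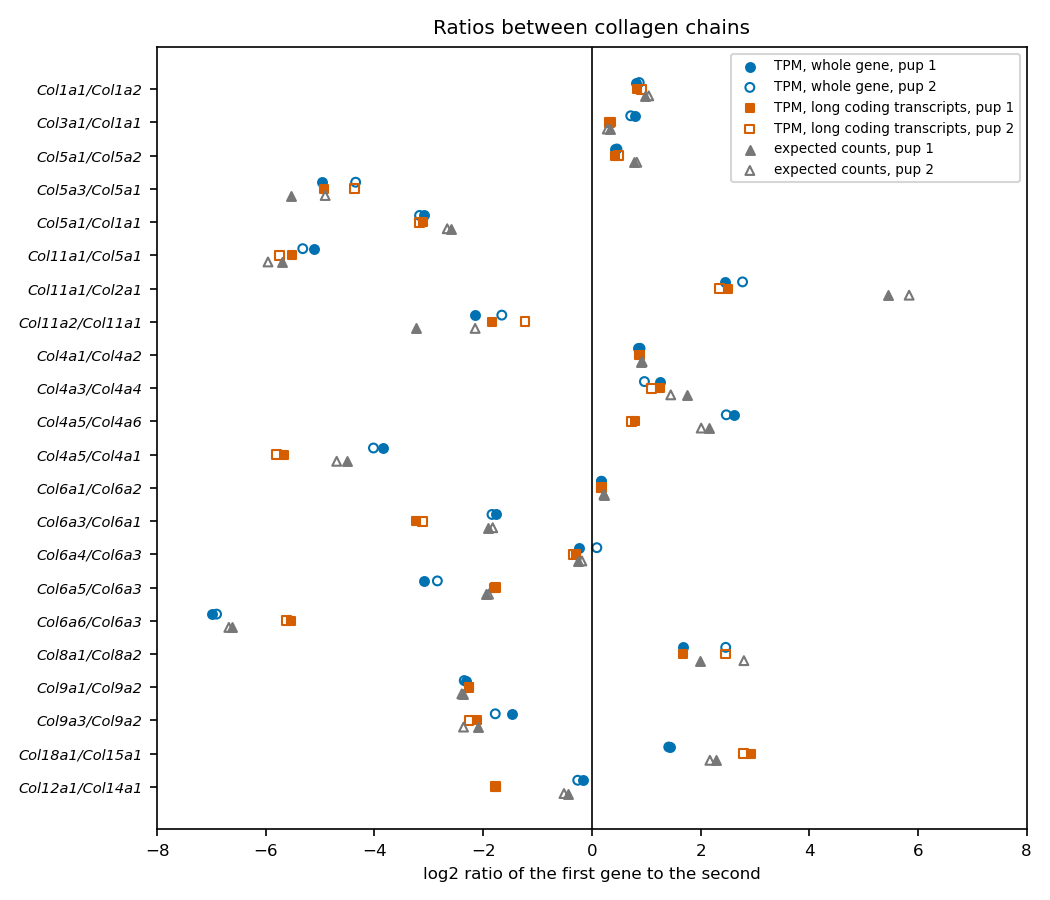
Log2 ratio of the first to the second gene for 22 pairs of collagen chains, by whole-gene TPM (circles), TPM of long coding transcripts (squares) and expected counts (triangles), filled for pup 1 and open for pup 2. Between circles and squares the type I, IV α1/α2 and VI α1/α2 pairs differ by less than 1 SD, while pairs with Col6a3, Col4a5, Col15a1 or Col12a1 shift by more than 1 log2 unit, except Col6a4/Col6a3.

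The transcript tables show how each gene's signal was divided. Of 26 detected collagens, 12 had at least 95% of their TPM in long coding transcripts in both pups (46.2%), against 52.0% of 12656 detected protein-coding genes. At the other end, 8 had under 50% in both pups (30.8%), against 12.8% of the same genes. Those 8 were Col12a1, Col24a1, Col4a5, Col6a4, Col15a1, Col27a1, Col6a3 and Col16a1, and in each of them a shorter transcript led, which reached the 3′ end of the gene within 5% of the span of the longest coding transcript. In 5 of the 8 the leading transcript was not annotated as protein-coding. By long coding transcripts alone, 25 of the 26 stayed at 1 TPM or more, and Col24a1 fell below, at 0.46 and 0.48 TPM.

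Col6a3 gives the clearest case. A retained-intron transcript of 646 bases, Col6a3-206 (chr1:90767389-90773215), took 57.6% ± 2.6 of the gene's TPM but 8.24% ± 0.98 of its counts. The long coding transcript Col6a3-202, of 9001 bases, took 38.5% ± 3.3 of TPM and 89.1% ± 0.91 of counts. A short transcript thus weighed more in TPM than in reads because TPM divides by length. Col6a4-203 (1721 bases, chr9:105989454-105998322) held 67.4% ± 3.2 of TPM and 31.6% ± 3.1 of counts, Col12a1-204 (1784 bases) 66.6% ± 0.53 of TPM and 30.0% ± 0.45 of counts, and Col15a1-203 (1755 bases) 61.4% ± 1.6 of TPM and 35.6% ± 0.39 of counts. In Col4a5 the shorter Col4a5-204 (3511 bases) led by both measures, with 71.7% ± 2.0 of TPM and 58.4% ± 0.98 of counts.

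The remaining leading short transcripts were Col16a1-207 (49.3% ± 3.4 of TPM), Col24a1-204 (75.3% ± 7.7) and Col27a1-205 (46.8% ± 2.7). Col14a1 was divided between the long coding transcript Col14a1-203 (49.0% ± 2.8 of TPM) and the shorter Col14a1-204 (42.5% ± 1.1). Even Col3a1 carried a 737-base coding transcript, Col3a1-205, with 23.5% ± 1.5 of TPM and 3.50% ± 0.27 of counts. Whole-gene Col3a1 was at 476 ± 11.5 TPM and its long coding transcripts, which leave out this and other short ones, at 358 ± 15.0 TPM, still above Col1a1 at 282 ± 16.8 TPM. By contrast Col1a1-201, Col4a1-201, Col6a1-201, Col8a1-201 and Col23a1-201 each held over 99% of their gene. Read coverage along the transcripts was not analysed here, so whether each short transcript was present as annotated was not tested.

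**Figure D4:**
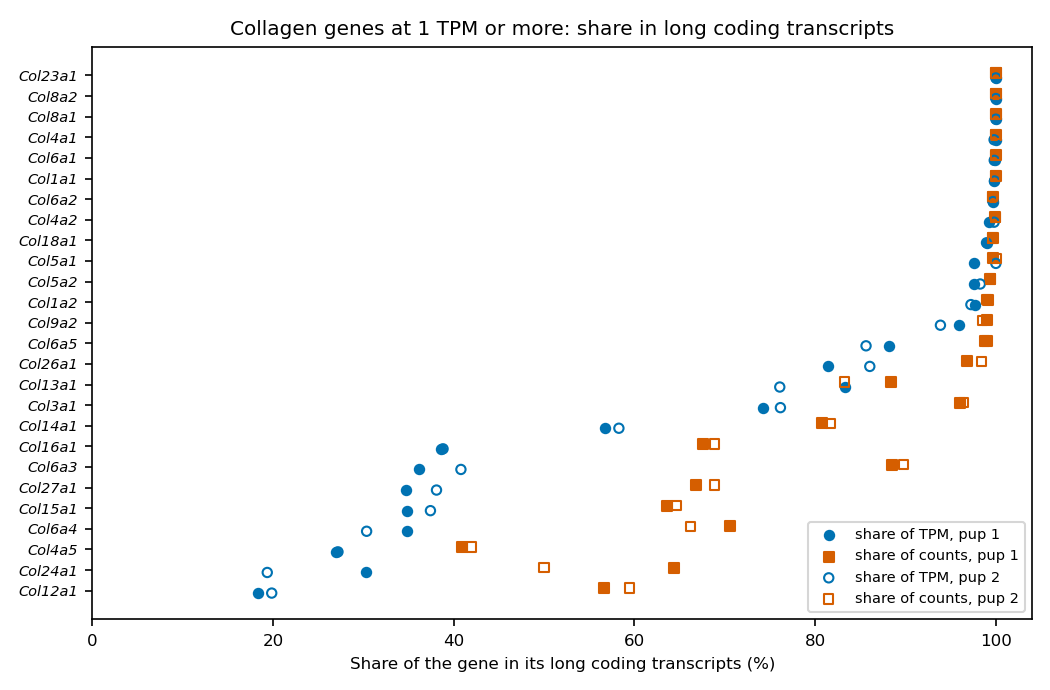
Share (%) of each of the 26 detected collagen genes held by its long coding transcripts, in TPM (circles) and in expected counts (squares), filled for pup 1 and open for pup 2. The 12 genes at the top lie at 95% or more by both measures, and the 8 at the bottom lie under 50% in TPM in both pups and all of them higher in counts.

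The littermates were compared by the ratio of rounded expected counts over effective library sizes, with exact 95% intervals. These cover counting error alone, and reads without molecular identifiers can stem from the same molecule. Of 44 collagens, 43 had a summed count of at least 10, and Col2a1 did not. Among the 43, 7 differed by more than 1.5-fold, beside a background of 12.1% of 19088 genes. Col10a1, Col11a2, Col7a1 and Col5a3 were higher in pup 2 (4 genes, background 6.46%), and Col19a1, Col8a2 and Col22a1 in pup 1 (3 genes, background 5.63%). Past 2-fold there were 2, Col10a1 and Col19a1, beside 5.47% of all genes. At a summed count of at least 100, 4 of 36 collagens passed 1.5-fold (Col7a1, Col5a3, Col8a2 and Col22a1), beside 2.51% of 14348 genes. The median ratio of pup 2 over pup 1 was 0.976 over the 43 collagens and 0.996 over all genes tested. On the log2 scale the collagen median was -0.036, and scaling by total gene counts in place of TMM sizes moved it across 0, to 0.0025.

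Individual ratios show where the differences lay. Col19a1 had 48 reads in pup 1 and 9 in pup 2, a ratio of 0.234 (95% interval 0.101 to 0.482). Col10a1 had 2 and 9 reads, with an interval from 1.16 to 53.4. Better covered were Col5a3 with 202 and 249 reads (1.54, interval 1.27 to 1.86), Col7a1 with 97 and 127 (1.63, 1.24 to 2.15), Col8a2 with 263 and 137 (0.650, 0.525 to 0.802) and Col22a1 with 99 and 52 (0.655, 0.459 to 0.926). Col11a2 had 19 and 27 reads, and its interval of 0.950 to 3.37 included 1. Col27a1, with 562 and 659 reads, lay just inside the fold limit at 1.46 (1.30 to 1.64). The abundant chains differed little: Col3a1 had a ratio of 1.01 (0.999 to 1.02), Col1a1 1.04 (1.03 to 1.05), Col4a1 0.976 (0.952 to 0.999) and Col6a1 0.944 (0.919 to 0.969).

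Other genes also differed between these 2 libraries. The 16 measured HOX genes of paralogue groups 9 to 13 mark posterior position along the body. They summed to 14.5 TPM in pup 1 and 2.41 TPM in pup 2, and exocrine pancreas markers to 103 and 161 TPM. Skeletal muscle markers were closer in sum, at 30.2 and 27.5 TPM, with Ckm at 16.05 and 16.4 TPM and Acta1 at 6.15 and 2.23 TPM. The part of these genes in the collagen ratios was not tested. With 1 library per pup, a difference between animals and a difference between dissections or libraries cannot be told apart.

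**Figure D5:**
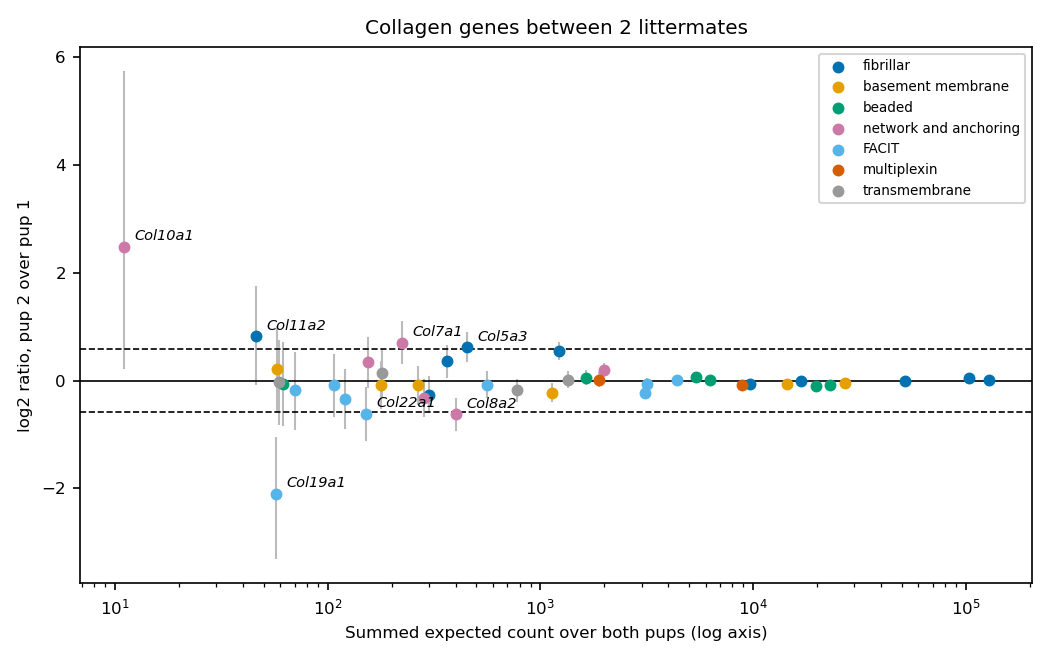
Log2 ratio of pup 2 over pup 1 against the summed expected count (log axis) for the 43 collagen genes with a summed count of at least 10, coloured by class, with exact 95% counting intervals as bars and dashed lines at 1.5-fold. The 7 named genes lie beyond the lines, at 451 summed reads or fewer, and every collagen with more reads lies inside the lines.

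Of 67 listed genes that make, process and bind collagen, 53 were detected, beside 12678 of 21461 nuclear protein-coding genes (59.1%). The list was chosen with earlier results of these data known. Of the 13 genes of prolyl and lysyl hydroxylation, the step that stabilises the helix and prepares crosslinks, 12 were detected. P4hb, the β subunit of prolyl 4-hydroxylase and also a subunit of the lipid transfer complex of enterocytes, was at 2064 and 2046 TPM, the peptidyl-prolyl isomerase Ppib at 377 and 327 TPM and Crtap at 46.9 and 45.9 TPM. The catalytic subunits P4ha1 (6.96 and 6.99 TPM) and P4ha2 (6.69 and 5.54 TPM) were far lower, and P4ha3 was at 1.29 and 0.50 TPM. For glycosylation, Colgalt1 (34.4 and 33.2 TPM) and Plod3 (8.97 and 9.59 TPM) were detected and Colgalt2 (0.36 and 0.45 TPM) was not. All 9 chaperone and export genes were detected, led by the collagen chaperone Serpinh1 at 151 and 148 TPM, with the cargo loader Mia2 (102 and 107 TPM) and the coat protein Sec23a (96.6 and 99.4 TPM) next.

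After secretion, 3 of 8 propeptide removal genes were detected: the enhancer Pcolce (34.1 and 34.0 TPM), the C-proteinase Bmp1 (14.7 and 15.3 TPM) and the N-proteinase Adamts2 (3.71 and 3.84 TPM). Tll2 was under 0.1 TPM in both pups. Crosslinking enzymes were detected for 5 of 6, led by Loxl1 (17.2 and 18.9 TPM), Loxl2 (14.8 and 16.3 TPM) and Lox (14.3 and 14.4 TPM), and Pxdn, which crosslinks type IV collagen, was at 12.2 and 12.2 TPM. Among 9 fibril partners, 8 were detected, with Sparc at 844 and 876 TPM, Dcn at 264 and 265 TPM and Lum at 106 and 103 TPM; Kera, known from cornea, was not. Sparc, a collagen-binding protein, was above every collagen in both pups.

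Of 10 receptors, 7 were detected. Itgb1, the β1 integrin subunit, was highest (151 and 149 TPM), followed by the discoidin receptors Ddr1 (23.2 and 21.7 TPM), mostly epithelial, and Ddr2 (12.2 and 12.9 TPM), mostly mesenchymal. The platelet receptor Gp6 had no read. Among 10 degradation genes 8 were detected, led by Mmp14 (42.4 and 39.0 TPM), Mmp2 (36.7 and 35.0 TPM) and the inhibitor Timp2 (31.2 and 31.2 TPM), and the neutrophil collagenase Mmp8 was under 0.1 TPM.

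A promoter window of 300 bases, from 250 before to 50 after the start, was in the RefSeq table (GRCm38.p6) for 35 of the 44 genes, in 38 windows. The windows of 32851 transcript starts of all genes served for comparison, and each motif was counted on both strands. The GC box GGGCGG was in 60.5% of collagen windows and 35.7% of all windows, CCAAT in 34.2% and 37.4%, and TATAAA in 13.2% and 13.6%. Some collagen windows overlap. Those of Col4a1 and Col4a2 share 78 bases with a GGGCGG, which counts for both genes. The Col6a2 windows also overlap, and both hold GGGCGG. These 3 motifs share no overlapping letters that would make one count as another. The TATAAA-holding windows were those of Col3a1, Col10a1, Col11a2, Col13a1 and Col17a1. Not in the table were Col1a1, Col26a1, Col14a1, Col12a1, Col5a2, Col9a3, Col22a1, Col2a1 and Col4a3. Col3a1, the highest collagen, had TATAAA 117 bases before its start (in capitals) and neither other motif, and its 250 upstream bases are shown for contrast with the GC-box promoter of Col18a1.
Col3a1 promoter, chr1:45311288-45311537, plus strand: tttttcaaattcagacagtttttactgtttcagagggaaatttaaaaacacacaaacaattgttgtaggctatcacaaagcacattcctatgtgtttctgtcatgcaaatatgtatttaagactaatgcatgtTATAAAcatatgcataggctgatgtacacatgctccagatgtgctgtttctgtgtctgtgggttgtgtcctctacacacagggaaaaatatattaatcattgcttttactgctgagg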

How the data were processed

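The 2 libraries, 1 from each pup of 1 litter, formed 1 group. The authors deposited, per the file headers, expected counts (estimated reads per gene or transcript that need not be whole), TPM scaled to effective length over all features, posterior mean versions of both, and the percent of a gene's TPM that each transcript holds. They used mm10 with GENCODE M4, per the submitters' processing notes. For the aligner, the quantifier and strandedness the answer is the same: not given in the sources used here.

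Names, positions and coding sequences came from GENCODE M21 on GRCm38, matched by identifier for 42462 of 43346 genes (98.0%) and 198 of 201 collagen transcripts; M4 and M21 transcript ends may differ. Promoter windows came from RefSeq (GRCm38.p6). No protein table was used, so helix repeats were counted as glycine codons in the coding sequence, a change from the planned count of residues.

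The 44 members, their classes, the chain pairs and the gene lists were chosen with earlier results of these data known. Named were all members, genes of every chain pair, members past 1.5-fold between pups, the 3 highest genes of each handling role and marker list, and handling genes under 0.1 TPM in both pups; further genes were chosen after their values were seen. The result of 1 marker list is not reported here. The marker lists hold genes that other tissues of the gut also express. Dcn and Lum stand in both the fibroblast markers and the fibril partners, so these lists are not independent.

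Log2 ratios of chains used TPM with 0.1 added, and values are mean ± SD (n = 2). Expected counts were rounded to whole numbers for the ratio between pups, over library sizes corrected by TMM factors (0.987 and 1.013, edgeR 4.0.16, R 4.3.3), with exact Clopper-Pearson 95% intervals from SciPy 1.17.1. DESeq2 1.42.0 size factors were an alternative. The ratio and its intervals were tested on simulated data with counting error alone, the error that the intervals cover. Spread between animals and repeated reads of the same molecule were not simulated. Where nothing says otherwise, the spread between these 2 samples may be partly technical. A count of 0 allows up to 3 reads at these depths. Other tools were Python 3.11.15, pandas 2.3.3, numpy 2.4.6 and matplotlib 3.10.9.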

Additional observations from a re-analysis of the deposited data

How the results depend on the processing

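No paired analysis was possible because both pups belong to 1 group. Alternatives with long coding transcripts, and those with protein-coding transcripts for the detected count, were chosen after seeing the data. By expected counts without length normalisation, the class shares moved to 71.2% (fibrillar), 9.80% (basement membrane) and 12.7% (beaded), and the log2 chain ratios to 1.01 (Col1a1 to Col1a2), 0.80 (Col5a1 to Col5a2), 0.91 (Col4a1 to Col4a2), 0.22 (Col6a1 to Col6a2) and -1.87 (Col6a3 to Col6a1), as lengths differ between chains. By protein-coding transcripts alone, the shares were 70.9%, 7.84% and 14.1% in the same order, Col5a1 to Col5a2 was 0.48 and Col6a3 to Col6a1 -3.08. By long coding transcripts alone, the fibrillar share was 69.8%, the basement membrane share 8.48% and Col6a3 to Col6a1 -3.17. With 1 TPM added in place of 0.1, every leading chain ratio moved by less than the spread between pups. Ratios with a low chain moved further, as for Col6a6 to Col6a3 (from -6.95 to -4.59) and Col11a1 to Col5a1 (from -5.21 to -4.23). The collagens past the fold limit between pups fell from 7 of 43 to 2 at 2-fold, and to 4 of 36 at a summed count of at least 100. The shares over all genes were 12.1%, 5.47% and 2.51% in the same order. Under the other scalings and without a count filter, such collagens numbered 6 to 8. Each pup alone gave fibrillar shares of 68.3% to 69.4%, basement membrane shares of 7.41% to 7.59%, beaded shares of 15.5% to 16.0% and 27 detected collagens. Col6a4 to Col6a3 ran from -0.23 without pup 2 to 0.091 without pup 1, a reversal. The detected count ran from 23 at 2 TPM to 32 at 0.5 TPM. Every leading chain ratio kept its sign under all alternatives run. Over all results, 87 values moved by more than the spread between pups or by over 1.5 times for a count, 1 reversed and 127 moved by less. Among the latter, the median log2 ratio between pups changed sign, from -0.036 to 0.0025, when scaled by total gene counts. The 127 also hold shares and chain ratios from 1 pup alone. With 2 pups such a value always lies within 1 SD of the mean, so it could not count as moved. Depth limits Col2a1, Col10a1 and Col11a2, which have under 50 reads over both pups.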
